A study of Mus musculus with 4 samples.

Results

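Peroxiredoxins, thioredoxin, its reductase and the enzymes that make and recycle glutathione form the main route by which cells remove hydrogen peroxide and keep protein thiols reduced. The group described here held 10 genes, *Prdx1*, *Prdx2*, *Prdx4*, *Prdx5*, *Prdx6*, *Txn1*, *Txnrd1*, *Gclc*, *Gclm* and *Gsr*, taken by gene symbol from the 55335 annotated genes. All 10 were found and all 10 passed the filter on low counts. A peroxiredoxin reduces peroxide with a reactive cysteine, thioredoxin reduces the oxidized peroxiredoxin, and thioredoxin reductase renews thioredoxin with NADPH. Glutathione is built from glutamate, cysteine and glycine, with glutamate-cysteine ligase as the rate-limiting step, and glutathione reductase returns its oxidized form to the reduced one. Mouse oocytes are known to accumulate glutathione as they mature, and the egg uses it around fertilization. Not every member is confined to the cytosol: the *Prdx4* protein works in the secretory pathway, and that of *Prdx5* is also found in mitochondria and peroxisomes.

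The study sequenced oocytes of C57BL/6 mice in which a point mutation was placed at an alternative splice site of exon 3 in *Ezh2*, whose product is the methyltransferase of Polycomb repressive complex 2. It held 4 Smart-Seq2 libraries, made by amplification of cDNA from small RNA inputs: 2 labelled mutant and 2 labelled control, of the same strain and cell type. The sample descriptions call both groups MII, and the labels give neither age, treatment nor number of oocytes, nor whether the mutants were of the long or the short form. Whether each library came from its own animal or animals is not said, and p-values therefore measure only the spread of these libraries, which may be technical. Matrix totals were 26575938 and 26587327 counts in mutants 1 and 2 and 26617816 and 25090032 counts in controls 1 and 2. *Ezh2* itself was at 176 and 223 CPM (counts scaled to library size) in mutants and 313 and 239 CPM in controls, and a total per gene does not check a splice site mutation. Markers of oocytes were all present, with *Gdf9* at 2807 and 3562 CPM in mutants and 4144 and 3648 CPM in controls. They did not share a direction, with *Zp3* at 194 and 159 CPM in mutants and 148 and 131 CPM in controls. Of the 6 markers 3 were lower and 1 higher in mutants without overlap of the groups, and 2 overlapped. Of all tested genes 25.7% were lower and 28.8% higher without overlap.

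Other cells were also represented, and unequally. All 14 cumulus and granulosa markers had counts in mutant 1, against 10 in mutant 2, 10 in control 1 and 7 in control 2. Their summed level was 354.7 and 44.8 CPM in the mutants and 71.0 and 55.3 CPM in the controls. *Gja1*, which encodes connexin of cumulus cell gap junctions, had 99.3 and 7.96 CPM in mutants against 10.9 and 0 CPM in controls, and *Inha*, *Ptx3* and *Tnfaip6* were also at 0 in control 2, *Ptx3* in mutant 2 as well. *Cyp19a1*, aromatase, was instead lower in both mutants, at 16.4 and 23.6 CPM in mutants and 34.2 and 42.5 CPM in controls. With *Nr5a2*, at 12.3 and 7.06 CPM in mutants and 9.99 and 11.4 CPM in controls, it made up most of the sum in mutant 2 and in both controls. Leukocyte markers summed to 18.3 and 92.5 CPM in the mutants and to 6.56 and 7.74 CPM in the controls, with 7, 12, 5 and 4 of 13 above 0 in mutant 1, mutant 2, control 1 and control 2. *Csf1r*, at 8.81 and 5.97 CPM in mutants and 5.44 and 6.47 CPM in controls, made up most of the control sums. *Ptprc* was at 0.107 and 43.2 CPM in mutants and 0 in both controls. *Lyz2* was higher in both mutants, at 8.03 and 3.83 CPM against 0.362 and 0.0397 CPM in controls (log2 fold change 4.85, edgeR adjusted p = 0.0437). Of the 4 leukocyte markers abundant enough to test it was the 1 that passed, beside 3.75% of all tested genes. *Cd4* was lower in mutants, at 0.320 and 0.488 CPM against 0.685 and 1.11 CPM in controls. Red blood cell genes summed to 0.0355 and 0 CPM in the mutants and 2.05 and 0 CPM in the controls. In such bulk libraries fewer cells of a type and less RNA per cell cannot be told apart.

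The catalytic cysteine is what the peroxiredoxins share, and the coding sequence around its codon shows how close the members are. The lines below run 5′ to 3′ on the coding strand of a GENCODE transcript, with the codons of the active site in capitals.
Prdx1: tttacttttgtgTGTcccacggagatc
Prdx2: ttcacttttgttTGCcccacggagatc
Prdx4: ttcacctttgtgTGTccaactgaaatc
Prdx6: tttaccccagtgTGCaccacagaactt
Prdx5: tttacacctggcTGTtctaagacccac
Txn1: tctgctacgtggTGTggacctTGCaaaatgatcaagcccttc
Gsr: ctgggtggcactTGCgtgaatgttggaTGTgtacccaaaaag
Txnrd1: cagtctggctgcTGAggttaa
In the peroxiredoxins the capitals mark the peroxide-reacting cysteine, which was codon 52 of 199 in *Prdx1*, 51 of 198 in *Prdx2* and 127 of 274 in *Prdx4*. The longer open reading frame of *Prdx4* includes the signal for secretion. In *Txn1* and *Gsr* the capitals mark the pair of cysteines that cycle between dithiol and disulfide. In *Txnrd1* they mark an in-frame TGA that is read as selenocysteine, a codon before the end of the reading frame, at codon 612 of 613. Over the coding bases that could be aligned *Prdx1* was 70.0% identical to *Prdx2* (597 bases) and 65.3% identical to *Prdx4* (596 bases).

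None of the 10 genes passed the test between mutant and control oocytes, against 3.75% of all 15493 tested genes (1.77% higher and 1.98% lower). The test was edgeR's quasi-likelihood test with p adjusted by Benjamini-Hochberg over all tested genes and a threshold of 0.05. At an unadjusted p under 0.05 there were 5 of 10, *Prdx2*, *Prdx4*, *Prdx6*, *Gclc* and *Gsr*, where 23.0% of all tested genes were past that limit. DESeq2 called 3, *Prdx2*, *Gclc* and *Gsr*, beside 11.6% of the 16679 genes to which it gave an adjusted p. *Prdx2* was the lowest of the members relative to controls, and *Prdx6*, *Gclc*, *Gclm* and *Gsr* were higher in both mutant libraries than in either control. The groups thus did not overlap for 6 of 10 genes, 4 higher and 2 lower in mutants, beside 54.6% of tested genes without overlap (28.8% higher and 25.7% lower). Of the members 7 of 10 had a positive log2 fold change, as did 53.3% of tested genes. The median log2 fold change of the members was 0.39 and that of all tested genes 0.05. *Prdx1* and *Prdx2* carried almost all of the RNA of the group, so the summed level was lower in mutants, at 7529 and 6617 TPM (transcript abundance scaled to length and library), than in controls, at 8358 and 8823 TPM.

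**Figure D1:**
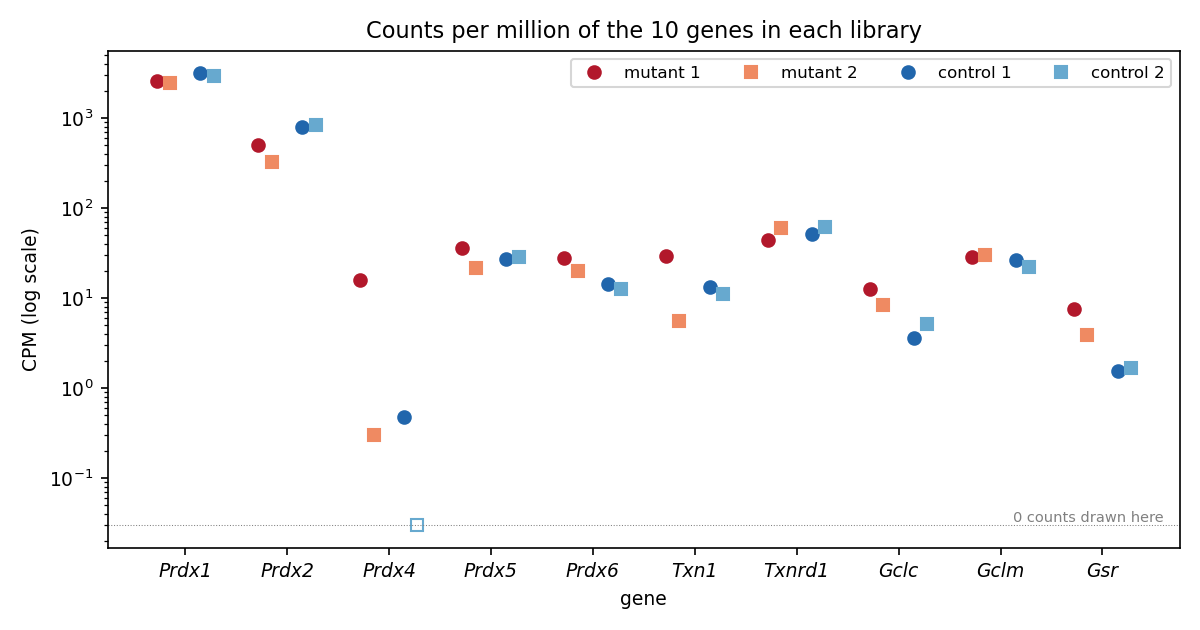
CPM (log scale) of each gene in the 4 libraries, with mutants left and controls right of each gene. *Prdx1* lies between 2442 and 3158 CPM, *Prdx2* is lower in both mutants, and *Prdx4* reaches 16.1 CPM in mutant 1 alone; the open square marks 0 counts in control 2.

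Compared per transcript length, *Prdx1* was far the most abundant member. *Prdx1*, the main cytosolic peroxiredoxin, was at 6264 and 5850 TPM in mutants and 6920 and 7204 TPM in controls. It ranked 18th and 20th of all genes in the mutant libraries and 14th and 16th in the control libraries. *Prdx2*, its close cytosolic relative, came next in every library, at 969 and 610 TPM in mutants and 1307 and 1476 TPM in controls. Together they left 296 and 157 TPM for the other 8 genes in mutants and 131 and 143 TPM in controls. In deposited TPM *Gclm* came next in every library, at 67.6 and 56.6 TPM in mutants and 41.0 and 44.4 TPM in controls. *Prdx6*, *Txnrd1*, *Txn1* and *Prdx5* followed between 11.6 and 63.1 TPM, in an order that differed between libraries. *Gsr* and *Gclc* stayed between 0.84 and 4.67 deposited TPM in every library. *Prdx4* was at 38.0 and 0.73 TPM in mutants and 0.97 and 0 TPM in controls. Rebuilt per length from the matrix, *Prdx5* was instead at 72.4 and 36.1 TPM in mutants and 52.6 and 52.1 TPM in controls. *Gclm* was then at 58.0 and 46.0 TPM in mutants and 36.8 and 38.2 TPM in controls, and *Gclc* reached 5.10 TPM in mutant 1. The order below *Prdx2* thus depended on the source.

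*Prdx1* was at 2574 and 2442 CPM in mutants 1 and 2 and at 3158 and 2922 CPM in controls 1 and 2. Both mutants lay below both controls, with means of 2508 ± 93.0 CPM in mutants and 3040 ± 167 CPM in controls (SD, n = 2 each). The fitted log2 fold change was -0.28 (95% interval -0.66 to 0.11, adjusted p = 0.354), so the direction was not settled by the test. The gene lies on chromosome 4 (116685544 to 116700822, mm10). Its 3 copies, between 90.9% and 98.3% identical where aligned, had together 41 and 35 counts in mutants and 51 and 33 in controls. *Prdx1* itself had 72475 and 65014 counts in mutants and 78409 and 73630 in controls.

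*Prdx2* was at 508 and 324 CPM in mutants and at 808 and 842 CPM in controls. The highest mutant was thus well below the lowest control, and mutant 2 stood further from the controls than mutant 1. Group means were 416 ± 130 CPM in mutants and 825 ± 23.8 CPM in controls (SD, n = 2 each). The fitted log2 fold change, -0.99 (SE 0.23, 95% interval -1.54 to -0.44, edgeR adjusted p = 0.0669), did not pass. It passed under 5 of 16 alternatives, among them DESeq2 (adjusted p = 0.000240), leaving out mutant 1 (log2 fold change -1.37, adjusted p = 0.000166) and both other filters on low counts. Over the 16 alternatives its adjusted p ranged between 0.000166 and 0.353, and the sign was negative in 16 of 16. The TPM of *Prdx1* was 6.46 and 9.59 times that of *Prdx2* in mutants, and 5.30 and 4.88 times in controls.

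The gene of *Prdx2* (chromosome 8, 84969587 to 84974834) has exons that overlap those of *Junb*, an immediate early transcription factor gene on the opposite strand, by 173 bases, and those of *Rnaseh2a*, a ribonuclease subunit gene also on the opposite strand, by 177 bases. *Rnaseh2a* had 99 and 32 matrix counts in mutants and 50 and 46 in controls. *Junb* had 508 and 656 matrix counts in mutants and 1241 and 1148 in controls, 3.55% and 7.61% of the *Prdx2* count in mutants and 6.18% and 5.41% in controls. Its RSEM expected counts were 21 and 148 in mutants and 0 in both controls. Without knowledge of strand, reads of these genes cannot be told apart where they overlap. The expected counts of *Prdx2* were 14406 and 8635 in mutants and 20797 and 21920 in controls, and its log2 fold change with them was -1.02 (adjusted p = 0.0587).

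*Prdx6* (chromosome 1, 161240112 to 161251219) encodes the peroxiredoxin with a single catalytic cysteine, which also acts as a phospholipase. It was at 28.2 and 19.8 CPM in mutants and at 14.3 and 12.8 CPM in controls, so that every mutant was above every control. The fitted log2 fold change was 0.83 (95% interval 0.21 to 1.44, edgeR adjusted p = 0.122). Without mutant 1 the log2 fold change was 0.53 (adjusted p = 0.365) and without mutant 2 it was 1.05 (adjusted p = 0.0698). Its copy *Prdx6b*, 90.1% identical over 1444 aligned bases, had 0 counts in 3 libraries and 1 count in control 2.

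*Prdx4* (chromosome X, 155323918 to 155340754), the peroxiredoxin of the secretory pathway, had 454 counts in mutant 1 and 8 in mutant 2, against 12 in control 1 and 0 in control 2. In CPM this was 16.1 and 0.301 in mutants and 0.483 and 0 in controls, and a count of 0 in control 2 allows up to 0.119 CPM. A single library therefore held the signal, and the groups overlapped. The fitted log2 fold change was 5.07 (SE 1.90, adjusted p = 0.178), 0.28 without mutant 1 (adjusted p = 0.961) and 6.03 without mutant 2 (adjusted p = 0.0149). Without control 1 the remaining control was at 0, so no fold is given (adjusted p = 0.413). Mutant 1 was also the library with *Gja1* at 99.3 CPM and *Inhba* at 86.7 CPM, and the part of cumulus cells in the *Prdx4* value was not tested.

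*Txn1* (chromosome 4, 57943373 to 57956411), the cytosolic thioredoxin, split the mutant libraries in opposite directions. It was at 29.5 CPM in mutant 1 and 5.63 CPM in mutant 2, on either side of the controls at 13.3 and 11.2 CPM. On the log2 scale mutant 1 was 1.27 above and mutant 2 was 1.12 below the control mean; the fitted log2 fold change was 0.52 (95% interval -1.10 to 2.14, adjusted p = 0.701). Without mutant 1 it was -1.14 (adjusted p = 0.0589) and without mutant 2 it was 1.26 (adjusted p = 0.0470), so that no common direction was measured. The summed cumulus markers were also highest in mutant 1, and their part was not tested. *Txnrd1* (chromosome 10, 82833951 to 82897712), the cytosolic thioredoxin reductase, was at 44.2 and 60.7 CPM in mutants and 51.1 and 61.2 CPM in controls. These groups overlapped, with a log2 fold change of -0.10 (95% interval -0.61 to 0.41, adjusted p = 0.832), an interval that leaves out a 2-fold difference either way.

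**Figure D2:**
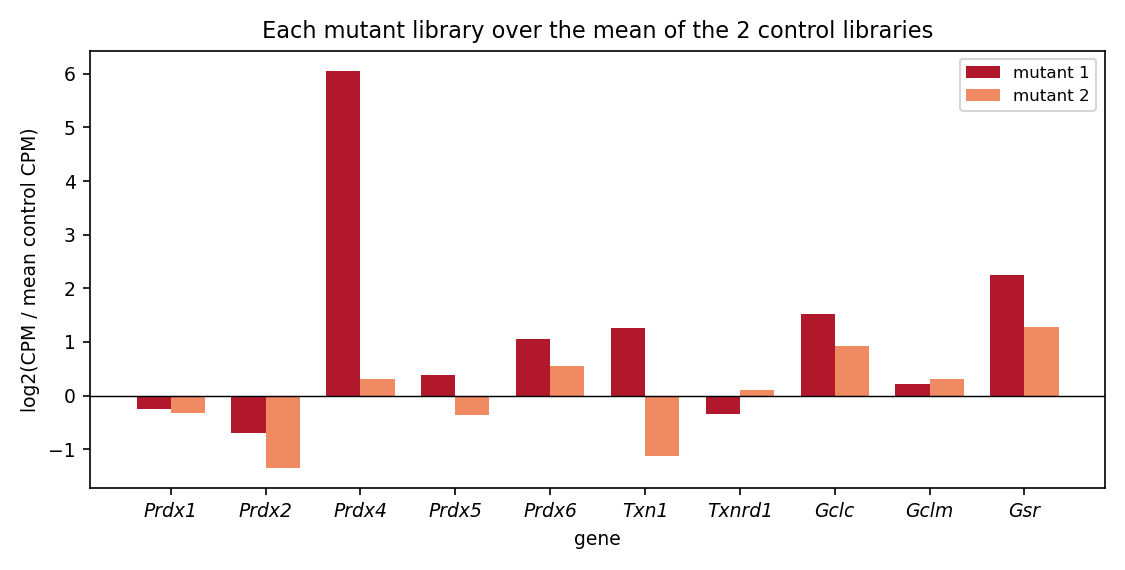
Bars give log2 of each mutant library's CPM over the mean CPM of the 2 controls, mutant 1 left and mutant 2 right. *Prdx1* and *Prdx2* are below 0 in both, *Prdx6*, *Gclc*, *Gclm* and *Gsr* above 0 in both, and *Txn1* is at 1.27 in mutant 1 and -1.12 in mutant 2.

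Mutant 1 held the highest CPM for 6 of the 10 genes, *Prdx4*, *Prdx5*, *Prdx6*, *Txn1*, *Gclc* and *Gsr*, and mutant 2 for *Gclm*. Control 1 was highest for *Prdx1*, and control 2 for *Prdx2* and *Txnrd1*. How often each library was highest over all tested genes was not counted. The 6 of 10 is therefore not shown to be particular to these genes. Where mutant 1 was highest, the ratio of mutant 1 to mutant 2 was largest for *Prdx4*, then *Txn1*, and for *Gsr*, *Prdx6* and *Gclc* mutant 2 still lay above both controls. The cumulus marker sum was also highest in mutant 1, and its part in these values was not tested.

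Among the glutathione genes *Gsr* (chromosome 8, 33652523 to 33698163), glutathione reductase, had the largest fitted fold after *Prdx4*. It was at 7.67 and 3.94 CPM in mutants and at 1.57 and 1.67 CPM in controls, counts of 216 and 105 against 39 and 42. Both mutants lay above both controls, with a fitted fold of 3.58 (95% interval 1.62 to 7.92, log2 fold change 1.84, edgeR adjusted p = 0.0824). It passed with DESeq2 (adjusted p = 0.0252) and without mutant 2 (log2 fold change 2.23, adjusted p = 0.0327), while without mutant 1 the log2 fold change was 1.27 (adjusted p = 0.162). In deposited TPM the groups overlapped, at 4.67 and 2.25 in mutants and 0.84 and 2.30 in controls, with mutant 2 just below control 2. The RSEM expected counts did not overlap, at 188 and 87 in mutants and 36 and 37 in controls. With them the log2 fold change was 1.77 (edgeR adjusted p = 0.110).

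*Gclm* (chromosome 3, 122245557 to 122270732), the modifier subunit of glutamate-cysteine ligase, was at 28.4 and 30.2 CPM in mutants and 26.5 and 22.1 CPM in controls. The mutants were closer to each other than the controls were, and the log2 fold change was 0.27 (95% interval -0.21 to 0.75, adjusted p = 0.480). *Gclc*, the catalytic subunit of the same enzyme, was at 12.6 and 8.38 CPM in mutants and 3.58 and 5.20 CPM in controls. The groups did not overlap, and the log2 fold change was 1.26 (95% interval 0.35 to 2.16, adjusted p = 0.112). With the RSEM expected counts this difference was 0.21 (SE 0.46, adjusted p = 0.837), since those counts were 156 and 99 in mutants and 78 and 124 in controls, and the groups overlapped.

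The disagreement for *Gclc* lay in the mutant libraries. Expected counts made up 43.8% and 44.4% of the matrix counts in mutants and 87.6% and 94.7% in controls. Of the 8497 genes averaging 100 matrix counts or more and at 0 in no library of either source, 0.836% had a share at least 2-fold lower in mutants than in controls. No other annotated exon overlapped those of *Gclc* (chromosome 9, 77754535 to 77794485), and no transcript of another gene was at least 90% identical over 200 bases. Which reads the matrix counted in mutants and RSEM did not was not tested. The ratio of *Gclc* to *Gclm* depended on the source. In deposited TPM it was 0.0435 and 0.0343 in mutants and 0.0337 and 0.0530 in controls, which overlap (exact two-sided permutation test p = 1). Rebuilt per length from the matrix it was 0.0879 and 0.0689 in mutants and 0.0331 and 0.0486 in controls, without overlap (exact p = 0.333, the smallest that 2 against 2 libraries allow).

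*Prdx5*, the peroxiredoxin shared by mitochondria, peroxisomes and cytosol, was uncertain in both sources. In the matrix it was at 36.2 and 21.6 CPM in mutants and 27.0 and 28.5 CPM in controls, with mutants on either side of the controls (log2 fold change 0.06, 95% interval -0.61 to 0.72, adjusted p = 0.929). Expected counts were 37.7% and 27.3% of the matrix counts in mutants and 20.3% and 20.5% in controls, and with them the log2 fold change was 0.80 (adjusted p = 0.345). Its exons (chromosome 19, 6906697 to 6910106) share 409 bases with those of *Trmt112*, a methyltransferase cofactor gene on the opposite strand. Added together, the genes had 1791 and 1125 matrix counts in mutants and 1277 and 1384 in controls, and 1762 and 1081 expected counts in mutants and 1254 and 1353 in controls. The sums of both sources thus nearly coincided, whereas the division between the overlapping genes differed.

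**Figure D3:**
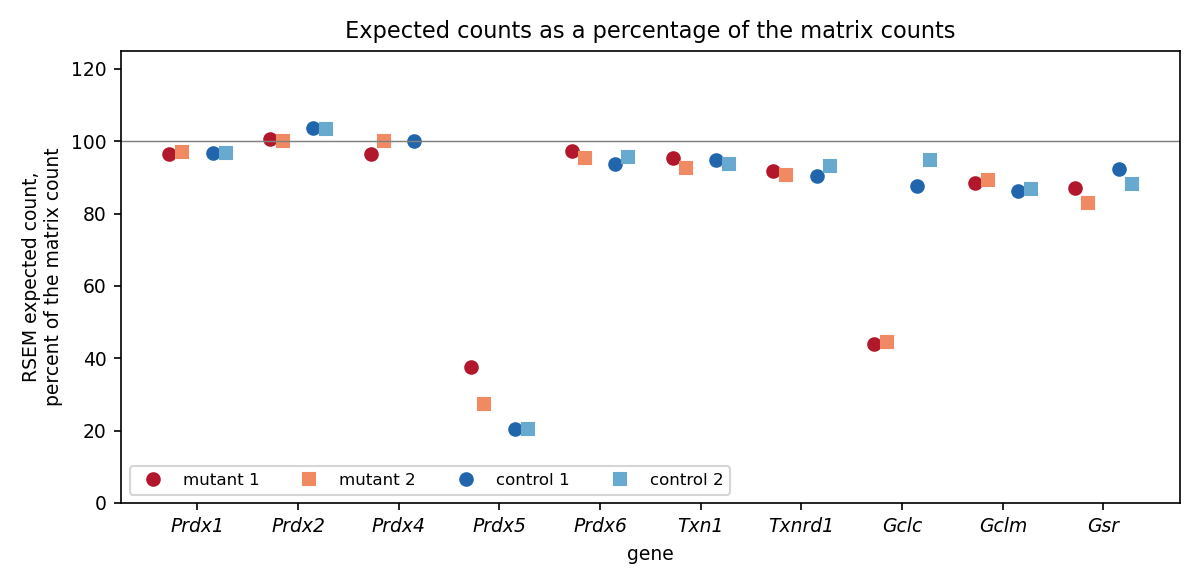
RSEM expected count as a percentage of the matrix count for each gene and library. Most values lie near 100; *Prdx5* is between 20.3% and 37.7%, and *Gclc* is at 43.8% and 44.4% in mutants and 87.6% and 94.7% in controls. *Prdx4* in control 2 has no point because both counts were 0.

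**Figure D4:**
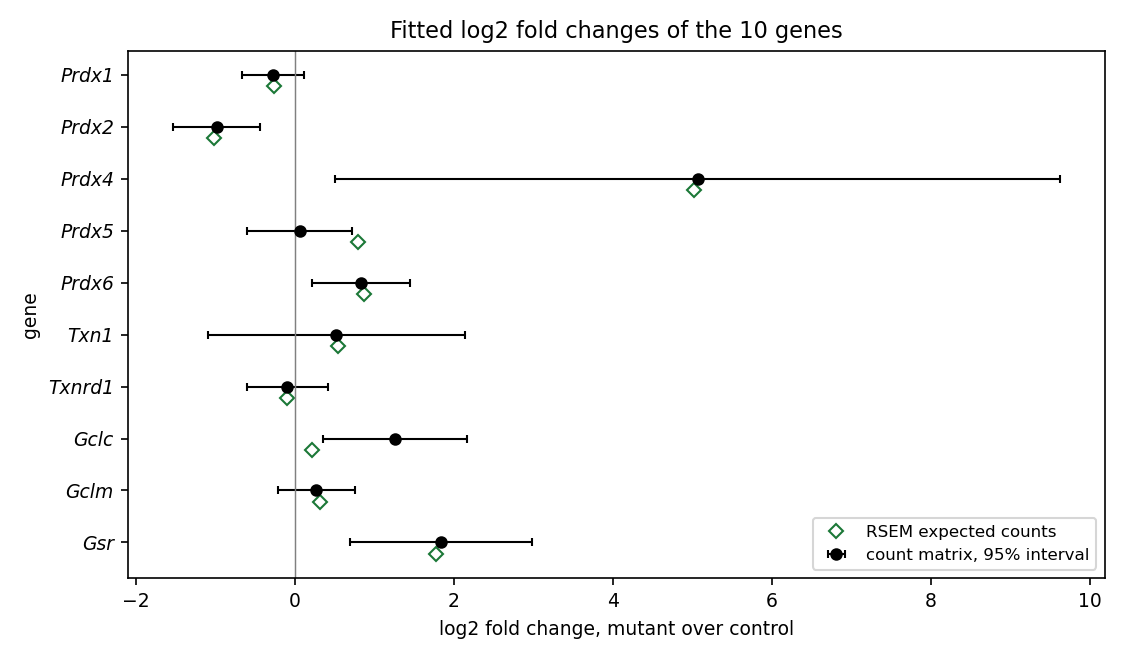
Fitted log2 fold change of mutant over control for each gene. Filled points are the count matrix with 95% intervals and open diamonds the RSEM expected counts; the intervals of *Prdx2*, *Prdx4*, *Prdx6*, *Gclc* and *Gsr* leave out 0, before adjustment for 15493 tested genes, and the sources part for *Prdx5* and *Gclc*.

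The antioxidant response element, the DNA motif bound by NRF2 with small MAF proteins, is a known control site of several of these genes. Its core TGACNNNGC was searched on both strands from 250 bases before to 50 bases after the transcription start in RefSeq promoters (GRCm38.p6). Of the 10 genes 7 had a promoter there, in 9 windows, because *Txnrd1* has 3 starts. The core was found once each in *Prdx1*, *Gclm* and one window of *Txnrd1*, and in 12.4% of all 32851 windows. It began 133, 134 and 92 bases before the start and read on the opposite strand each time. The matches are given with their flanks, with the core in capitals as it reads on the strand of the gene. The letters common to the cores are those that the search fixed.
Prdx1: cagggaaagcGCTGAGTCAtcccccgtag
Gclm: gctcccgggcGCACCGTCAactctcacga
Txnrd1: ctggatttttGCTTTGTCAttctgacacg
None of these genes passed the test, and their log2 fold changes were -0.28, 0.27 and -0.10 in that order. The window of *Gclm* is chr3:122245307-122245606 and that of *Txnrd1* chr10:82858956-82859255, both on the plus strand. The promoter windows of *Prdx1* (chr4:116685349-116685648, plus strand) and *Prdx2* (chr8:84969372-84969671, plus strand) are given whole because these genes hold nearly all of the RNA of the group.
Prdx1: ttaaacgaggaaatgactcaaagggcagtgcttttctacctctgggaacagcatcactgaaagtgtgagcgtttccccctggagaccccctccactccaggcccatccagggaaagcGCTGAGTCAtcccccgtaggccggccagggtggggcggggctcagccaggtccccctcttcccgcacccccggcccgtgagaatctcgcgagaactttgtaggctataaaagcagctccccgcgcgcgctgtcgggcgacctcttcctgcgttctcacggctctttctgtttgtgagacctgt
Prdx2: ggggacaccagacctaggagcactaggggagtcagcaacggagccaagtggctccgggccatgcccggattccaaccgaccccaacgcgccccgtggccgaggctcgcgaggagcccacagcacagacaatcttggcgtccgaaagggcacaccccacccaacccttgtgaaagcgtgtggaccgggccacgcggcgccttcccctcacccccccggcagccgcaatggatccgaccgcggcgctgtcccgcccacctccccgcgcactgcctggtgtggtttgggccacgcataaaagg
Capitals mark the core, which was not among the letters of the *Prdx2* window. The windows were 60.7% and 68.7% G or C, and the median of all windows was 52.7%.

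Of 92 other genes of the same system, listed by role, 69 were abundant enough to test. Of these, 1 rose and 0 fell with p adjusted over all genes, beside 1.77% and 1.98% of all tested genes. A positive log2 fold change was seen for 50 and a negative one for 19, and the median was 0.30. Of all tested genes 53.3% were positive, and their median was 0.05. DESeq2 called 15 of the 92 genes, and 11.6% of all genes to which it gave an adjusted p. How many of the 92 had one was not counted, so these shares have unlike bases. With limma trend 2 of the 69 tested genes were called, beside 4.76% of all tested genes. The gene that rose was *Sesn1*, a stress-induced sestrin, at 4.44 and 3.94 CPM in mutants and 0.282 and 0.714 CPM in controls (log2 fold change 3.06, SE 0.60, adjusted p = 0.0485). It did not pass without control 1 (adjusted p = 0.324) or without control 2 (adjusted p = 0.257), with the RSEM counts (adjusted p = 0.0585) or with 2 of the 3 other scalings.

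Other antioxidant enzymes, which include the mitochondrial partners of the members, the superoxide dismutases, glutathione peroxidases and glutaredoxins, had 21 of 29 genes tested and a median of 0.30. *Sesn1* was the one that passed. Without overlap of the groups 11 genes were higher and 4 lower, beside 28.8% and 25.7% of all tested genes. *Ggct*, the cyclotransferase that acts on gamma-glutamyl products of glutathione breakdown, was chosen after its values were seen. It was at 938 and 923 CPM in mutants and 592 and 562 CPM in controls, with a gap between the groups many times the spread within them. Its log2 fold change was 0.69 (SE 0.14, edgeR adjusted p = 0.0550), and it passed under 6 of 16 alternatives, with adjusted p between 0.000140 and 0.366.

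Glutathione transferases, which join glutathione to other molecules, had 16 of 25 genes tested and 0 that passed. There were 7 at an unadjusted p under 0.05 (beside 23.0% of all tested genes), and the median of the list was 0.18. The 2 highest by mean CPM were *Gstm5* and *Mgst3*, and both were lower in each mutant than in each control. *Gstm5* was at 87.4 and 48.0 CPM in mutants and 156 and 129 CPM in controls (log2 fold change -1.08, adjusted p = 0.0873). Without mutant 1 its log2 fold change was -1.59 and without mutant 2 it was -0.72. *Mgst3* was at 56.2 and 53.6 CPM in mutants and 90.5 and 85.2 CPM in controls (log2 fold change -0.68, adjusted p = 0.0613). DESeq2 called both.

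Regulators and other targets of NRF2 had 21 of 26 genes tested and 0 that passed. There were 7 at an unadjusted p under 0.05 (beside 23.0% of all tested genes), and the median of the list was 0.79. Without overlap of the groups 13 were higher and 2 lower in mutants, beside 28.8% and 25.7% of all tested genes. The summed level of this list was 1648 and 917 CPM in mutants and 956 and 882 CPM in controls. The cumulus marker sum was also highest in mutant 1, and its part in these values was not tested. The 2 genes of the list with the highest mean CPM were *Slc7a11*, the cystine carrier that feeds glutathione synthesis, and *Fth1*, the ferritin heavy chain. CPM take no account of length. In TPM *Slc7a11*, at 73.0 and 87.1 in mutants and 57.2 and 64.5 in controls, was below *Ftl1* and *Slc3a2* in every library. *Ftl1* was at 1103 and 183 TPM in mutants and 234 and 191 TPM in controls. For *Slc3a2* the values were 206 and 218 TPM in mutants and 182 and 172 TPM in controls. *Slc7a11* was at 280 and 352 CPM in mutants and 311 and 282 CPM in controls (log2 fold change 0.09, adjusted p = 0.791). *Fth1* was at 590 and 49.2 CPM in mutants and 179 and 137 CPM in controls, the same split of mutants around controls as in *Txn1* (log2 fold change 1.02, adjusted p = 0.568). Without mutant 1 it was -1.70 (adjusted p = 2.18e-05) and without mutant 2 it was 1.89 (adjusted p = 0.00578). Genes of NADPH supply had 11 of 12 tested and 0 that passed. There was 1 at an unadjusted p under 0.05 (beside 23.0% of all tested genes), and their median was 0.18. In CPM their most abundant members overlapped between groups, with *Me1*, malic enzyme, at 1106 and 1269 CPM in mutants and 1204 and 1217 CPM in controls. In TPM *Me1* did not overlap, at 616 and 714 in mutants and 1085 and 1179 in controls, with a difference of -0.77 on log2(TPM + 1) (limma adjusted p = 0.0585). *Taldo1*, transaldolase, was at 230 and 219 CPM in mutants and 198 and 224 CPM in controls.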

How the data were processed

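Per the labels, oocyte RNA was amplified by Smart-Seq2, and titles gave groups and replicate numbers. The submitters' processing notes name cutadapt 1.16, STAR, RSEM and mm10; the counter behind the matrix and strand use were not given in the sources used here. Authors' raw counts, whole numbers, were deposited in a matrix for the series. Tables per library, deposited by the authors, hold RSEM expected counts, TPM and FPKM with lengths, per the file headers; FPKM was not used.

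The matrix was fitted with genotype alone in edgeR 4.0.16 under R 4.3.3 (TMM, filterByExpr, glmQLFit and glmQLFTest; 2 residual degrees of freedom), calling genes at a Benjamini-Hochberg adjusted p below 0.05. CPM use the TMM-scaled sizes of the tested genes. SE is the log2 fold change over the square root of F, and 95% intervals use the t quantile. The test was checked on simulated data, with 50 genes changed at each fold. It recovered 4% of those changed 2-fold, 50% of those changed 4-fold and 94% of those changed 8-fold. Alternatives were DESeq2 1.42.0, limma 3.58.1 (prior count 2; TPM with pseudocount 1 and mean of at least 1), other scalings, other filters, the replicate number as a block, omission of each library, rounded expected counts, and 127 mitochondrial and ribosomal protein genes left out. Copies (BLAST 2.17.0) and exon overlaps came from GENCODE M21, which matched 55154 gene IDs.

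Members and lists were chosen with earlier results of these data known. Named pathway genes were those past the threshold, or the 2 of a list with the highest mean CPM. *Ggct*, *Junb*, *Rnaseh2a*, *Trmt112*, *Cyp19a1*, *Nr5a2*, *Csf1r*, *Ptprc*, *Cd4*, *Zp3*, *Lyz2*, *Ftl1* and *Slc3a2* were chosen once values were known. The limit of 3 counts for a 0 covers counting error only, since amplified reads are not independent molecules; the 95% intervals include the spread between libraries.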

Additional observations from a re-analysis of the deposited data

How the results depend on the processing

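With 2 libraries a group, few moderate differences could pass, and the value of a single library often set the result. Over all genes 581 passed; the count was 1322 with no filter, 1942 with DESeq2, 1213 with the replicate block, and between 22 and 1688 with a library left out, where the lone library of a group is assumed to vary like the others. Of the 10 members 0 passed; the count was 1 with no filter and 1 with a mean of at least 10 CPM (*Prdx2* both times), 3 with DESeq2, 2 with the replicate block (*Prdx2*, and *Prdx4* with an adjusted p of 0.00217), and between 0 and 3 with a library left out. Of the other pathway genes 1 passed. The count was 0 with RLE scaling in edgeR, 8 with no filter and 4 with a mean of at least 10 CPM. It was 15 with DESeq2, 2 with limma trend and 11 with the replicate block. The member and pathway counts rest on unlike numbers of tested genes. Calls over all genes were 581 of 15493 in the main fit and 1322 of 26406 with no filter. The filter at 10 CPM gave 620 of 6541, and DESeq2 1942 of 16679. Of the same 15493 genes, RLE scaling called 515, limma trend 738 and the replicate block 1213. How many pathway genes each other filter kept was not counted. The titles share replicate numbers, but nothing says that they pair libraries: deviations of same-numbered libraries correlated at 0.166 over 15493 genes. Adding the copies of each member to its counts, chosen after seeing the data, changed no call.

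Of 157 recomputed log2 fold changes of the members 142 kept their sign and side of the threshold, 11 kept the sign and newly passed, and 4 turned. With a library left out the range was -0.38 to 0.37 for *Prdx5*, -1.14 to 1.26 for *Txn1*, -0.35 to 0.10 for *Txnrd1*, -0.090 to 0.23 for *Slc7a11*, -1.70 to 1.89 for *Fth1*, -0.14 to 0.051 for *Me1* and -0.0097 to 0.13 for *Taldo1*. *Txnrd1* was at 0.15 on log2(TPM + 1), and *Slc7a11* at -0.059 with the RSEM counts. *Me1* was at 0.023 with upper-quartile scaling, 0.061 with library totals and 0.016 under the filter at 10 CPM, all near its -0.03 in the matrix, and further off at -0.41 with the RSEM counts and -0.77 on log2(TPM + 1). The log2 ratio of *Gclc* to *Gclm*, mutant over control, was -0.13 in TPM, 0.96 from the matrix and between -0.46 and 0.20 with a library left out, and the replicate block gave -0.13. Of these turns the cause was not tested. *Prdx4*, *Gclc*, *Gsr* and *Sesn1* have no value under the filter at 10 CPM, which removes them.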
